A study of Mus musculus with 13 samples.

Results

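The genes described here are 36 markers of macrophages and other antigen-presenting cells, measured in brown adipose tissue of mice, where fat cells burn lipid and sugar for warmth. They were taken by gene symbol from the deposited count table, and 35 of the 36 had the required 10 or more counts over the 13 libraries, out of 55357 gene identifiers in the table. The lipid-associated macrophage receptor gene Trem2 had 3 counts and fell short. In all, 31 markers were abundant enough for the test, out of 11073 tested genes. The tissue came from mice whose Stim1 and Stim2 genes carried floxed alleles on both chromosomes (Stim1/2_fl/fl, called control) or from mice of the knockout genotype Stim1/2_Adp-Cre (KO), in which Cre is driven by the adiponectin promoter. Mice were held in the cold at 4 °C for 6 h or stayed at room temperature (RT), which gave 4 KO cold, 4 control cold, 3 KO RT and 2 control RT libraries. The labels give neither the age nor the sex of the mice, and nothing in them says whether replicates were different mice. The p-values therefore measure the spread between these samples, which may be partly technical.

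Stim1 and Stim2 encode sensors of calcium in the endoplasmic reticulum that open calcium channels of the plasma membrane when the store empties. Adiponectin is made by fat cells, so this Cre deletes the floxed genes in adipocytes, and macrophages and other cells of the depot keep both. Each library came from whole tissue, which means that a marker level reflects both the number of the marked cells and the RNA in each. In bulk samples, fewer cells of a type and less RNA per cell cannot be told apart.

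Macrophages of fat depots sit along vessels and between adipocytes, clear dead cells and lipid, and present peptides to T cells on MHC class II molecules. Some are long-lived residents that carry scavenger and lectin receptors such as CD163, LYVE1 and MRC1, while others derive from blood monocytes that enter through the chemokine receptor CCR2. Resident cells read the surroundings through Fc receptors and other surface receptors, for which adaptors such as FCER1G and TYROBP carry the signal inside, and they secrete the complement protein C1q.

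Many macrophage genes carry sites for the ETS factor PU.1 near their start, and MHC class II genes share a promoter element called the Y box, which binds NF-Y. The promoters of 4 markers are printed as examples: Cd163 was higher in the cold, Aif1 was lower in the cold, and H2-Aa and H2-Eb1 belong to the class II group. With all 13 libraries fitted, H2-Aa and H2-Eb1 did not pass the test in any comparison. H2-Ab1, the class II gene that passed in control tissue, has no RefSeq entry. The sequences are those of RefSeq on build GRCm38.p6, 150 bases ending just before the gene start, 5′ to 3′ on the strand of the gene. Capitals mark a match to GAGGAA, a core of PU.1 sites, or to CTGATTGG, a Y box, each searched on both strands. Cd163 lies at chr6:124304501-124304650 on the plus strand, Aif1 at chr17:35176053-35176202 on the minus strand, H2-Aa at chr17:34287824-34287973 on the minus strand and H2-Eb1 at chr17:34305717-34305866 on the plus strand.
Cd163: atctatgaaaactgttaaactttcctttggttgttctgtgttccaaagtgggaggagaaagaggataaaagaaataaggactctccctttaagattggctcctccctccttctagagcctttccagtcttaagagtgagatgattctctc
Aif1: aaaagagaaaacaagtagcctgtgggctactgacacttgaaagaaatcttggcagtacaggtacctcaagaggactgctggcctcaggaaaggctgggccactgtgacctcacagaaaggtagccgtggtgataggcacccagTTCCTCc
H2-Aa: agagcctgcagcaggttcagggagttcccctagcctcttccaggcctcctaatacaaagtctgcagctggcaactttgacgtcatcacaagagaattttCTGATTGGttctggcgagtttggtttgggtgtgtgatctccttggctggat
H2-Eb1: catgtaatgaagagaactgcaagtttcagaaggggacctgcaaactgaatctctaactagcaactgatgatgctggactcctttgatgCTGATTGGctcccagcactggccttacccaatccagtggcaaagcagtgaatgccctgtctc
The Aif1 window held the PU.1-type core on the strand opposite to the gene, 7 to 2 bases before its start. The Y box began 51 bases before the start of H2-Aa and 62 bases before that of H2-Eb1. The Cd163 window held neither run of letters. Of the 27 markers with a RefSeq entry, which had 31 windows, 10 had the PU.1-type core in at least one window. Among all genes 14.47% of 32851 windows of the same length had it, a share of windows and not of genes. The Y box occurred in 2 of the 27, which were H2-Aa and H2-Eb1, and in 3.16% of all windows. The letters searched do not overlap each other, and a match or its absence is a description of the letters and not of a bound site.

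Counts per library ran from 1570684 to 2016178 (median 1800685), with 15506 to 17061 genes detected and 9.43% to 13.4% of counts from mitochondrial genes. Levels are given in CPM, the count scaled to a common depth with edgeR's TMM factors. The library kit reads one tag per transcript at its 3′ end, so CPM was not divided by gene length. As a check of the labels, Stim1 had 78.8 to 108 CPM in KO cold libraries, against 114 to 134 CPM in control cold libraries, a log2 fold change of -0.45 ± 0.13 (SE, q = 0.0570). Stim2 had a log2 fold change of -0.88 ± 0.24 in the cold (q = 0.0382), where q is the Benjamini-Hochberg adjusted p of edgeR's two-sided quasi-likelihood test over all tested genes. At RT the log2 fold changes of KO over control were -0.90 ± 0.17 for Stim1 (q = 0.349) and -0.59 ± 0.31 for Stim2 (q = 1). A 3′ tag can come from outside the floxed stretch and from cells without Cre, so these levels are a weak check. A gene was called where q was under 0.05.

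The summed level of the markers differed more between control libraries than between KO libraries. It came to 459, 447, 471 and 415 CPM in the KO cold libraries, against 556, 903, 384 and 647 CPM in the control cold libraries. It came to 575, 469.9 and 539 CPM in the KO RT libraries, against 498 and 894 CPM in the control RT libraries. The 4 KO cold libraries lay close together and inside the range of the control cold libraries, and both groups of controls held a library near 900 CPM. Control cold 2 was the highest of its group in 26 of the 35 markers and control cold 3 the lowest in 28, while control RT 2 was the higher of its pair in 26.

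Other cell types moved with these libraries. Control RT 2 had 160 CPM summed over 14 pan-leukocyte genes, against 46.6 to 52.4 CPM in the other RT libraries, and 68.7 CPM summed over 19 T, B and NK cell genes, against 12.4 to 14.3 CPM. Control cold 2 had 1571 CPM summed over 10 fibroblast genes, where control cold 3 had 548 CPM. The KO cold libraries had 589 to 678 CPM over the same fibroblast genes. The part of these cells in the marker levels was not tested.

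**Figure D1:**
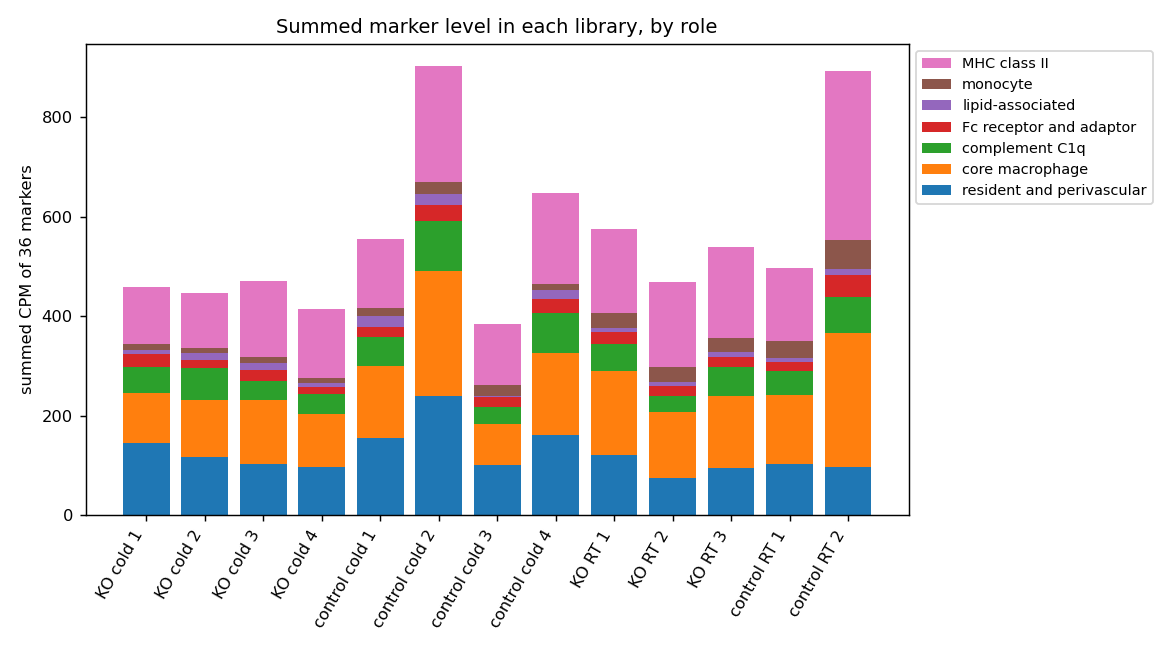
Summed CPM of the 36 markers in each of the 13 libraries (one bar per library, linear axis from 0), stacked by role. Control cold 2 (903 CPM) and control RT 2 (894 CPM) stand above the other libraries, and the 4 KO cold bars lie between 415 and 471 CPM.

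Cold exposure was the contrast with calls among the markers. Of the 31 tested markers, 2 rose and 5 fell in KO tissue in the cold (7 of 31, 22.6%), where 18.9% of all tested genes were called (9.43% higher and 9.45% lower). In control tissue 3 rose and 4 fell (7 of 31, 22.6%), where 25.2% of all tested genes were called (12.7% higher and 12.6% lower). Both shares were near those of all genes, so the number of calls is not particular to the markers. The median log2 fold change of the markers, cold over RT, was -0.26 in KO and -0.20 in control tissue, against -0.01 and -0.02 over all tested genes. Without control RT 2 the control median was 0.38, and without KO RT 1 the KO median was -0.16. In KO tissue 3 markers stood above RT in every cold library and 9 below, against 15.8% and 16.4% of all tested genes, and in control tissue 3 and 3, against 19.8% and 20.6%. The called markers were of different roles: Lyve1 and Cd163, of the resident and perivascular group, rose in both genotypes, and the monocyte genes Cx3cr1 and Ccr2 and the macrophage gene Aif1 fell in both. These 5 shared calls were 71.4% of the calls in each genotype and 0 markers moved in opposite directions. Over all genes the shared calls were 68.6% of the KO calls and 51.3% of the control calls. Cx3cr1 and Aif1 passed the abundance filter of the test only through RT libraries, and Lyve1 only through cold libraries, where each is high. The shared calls are therefore given as a description and not as support.

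Lyve1 (ENSMUSG00000030787.5, chromosome 7) encodes a hyaluronan receptor of perivascular macrophages and of lymphatic endothelium. It had 20.8, 17.2, 11.3 and 10.7 CPM in KO cold libraries, against 3.04, 1.72 and 2.10 CPM in KO RT libraries. The control cold libraries had 15.0, 30.3, 11.2 and 15.5 CPM, against 5.06 and 3.01 CPM in control RT libraries. Every cold library was above every RT library, in both genotypes. The log2 fold change was 2.66 ± 0.45 in KO (q = 0.000694) and 2.10 ± 0.46 in control tissue (q = 0.00358). Summed over 6 lymphatic endothelial genes, a list added after the Lyve1 values were seen, the level was 13.4 ± 3.14 CPM in KO cold, against 13.9 ± 2.95 CPM in KO RT (SD, n = 4 and 3). In control tissue it was 17.1 ± 5.44 CPM in the cold, against 9.51 ± 1.51 CPM at RT (SD, n = 4 and 2). Of the 6 genes, 2 were abundant enough for the test, and Mmrn1, which encodes an extracellular protein of lymphatic vessels, was called in control tissue at 2.48 ± 0.80 (q = 0.0312), while it had 0.90 ± 0.69 in KO tissue (q = 0.398). Mmrn1 passed the filter of the test only through control cold 2 (6.80 CPM) and control cold 3 (6.19 CPM). It was thus tested through the group where it is highest. The part of lymphatic cells in the Lyve1 level was not tested.

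Cd163 (ENSMUSG00000008845.10, chromosome 6) encodes the scavenger receptor for complexes of haemoglobin and haptoglobin and is a marker of resident macrophages. It had 23.3, 18.8, 15.8 and 15.2 CPM in KO cold libraries, against 8.10, 4.59 and 4.20 CPM in KO RT libraries. In controls, cold libraries had 28.2, 30.9, 16.1 and 21.2 CPM, against 11.5 and 9.04 CPM in control RT libraries. The cold and RT libraries did not overlap in either genotype. The log2 fold change was 1.67 ± 0.31 in KO (q = 0.00131) and 1.22 ± 0.31 in control tissue (q = 0.00969). In control tissue the call was lost without control RT 1 (1.41, q = 0.0532) or control RT 2 (1.08, q = 0.0615), each of which leaves a single RT control.

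Clec10a (ENSMUSG00000000318.17, chromosome 11) encodes a galactose-type lectin of resident macrophages and dendritic cells. It had 27.5, 19.3, 22.5 and 19.8 CPM in KO cold libraries, against 18.7, 15.5 and 18.4 CPM in KO RT libraries. Levels in control cold libraries were 30.5, 48.2, 20.4 and 38.8 CPM, against 10.6 and 20.5 CPM in control RT libraries. The KO groups stood apart by a narrow margin, and control cold 3 lay level with control RT 2. Clec10a was called in control tissue at 1.18 ± 0.32 (q = 0.0131), but not without control RT 1 (0.74, q = 0.230), and had 0.34 ± 0.28 in KO tissue. The difference of the cold response, KO minus control, was -0.84 ± 0.42 on the log2 scale and did not pass (q = 0.621). It was -0.40 without control RT 1 and -1.36 without control RT 2.

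Other resident markers differed in sign. Pf4 (ENSMUSG00000029373.8, chromosome 5), which encodes the chemokine CXCL4 of platelets and some resident macrophages, had 9.18, 12.5, 8.44 and 7.90 CPM in KO cold libraries, against 17.7, 10.9 and 21.0 CPM in KO RT libraries. Control cold libraries had 9.22, 14.2, 8.67 and 14.1 CPM, against 16.6 and 13.9 CPM in control RT libraries. The KO groups overlapped, because KO cold 2 was above KO RT 2. Pf4 was called in KO tissue at -0.80 ± 0.27 (q = 0.0497), at the edge of the threshold, and without KO RT 3 it had -0.58 (q = 0.215). Mrc1, the mannose receptor CD206, had 33.0, 30.3, 20.8 and 24.8 CPM in KO cold, against 37.5, 31.6 and 29.4 CPM in KO RT. It had 32.8, 53.8, 21.7 and 37.4 CPM in control cold, against 36.8 and 30.1 CPM in control RT, so that cold and RT libraries overlapped in both genotypes and neither log2 fold change passed (-0.27 ± 0.25 in KO and 0.11 ± 0.27 in control tissue). F13a1, coagulation factor XIII A chain, had 29.4, 18.3, 23.1 and 18.1 CPM in KO cold, against 31.9, 9.75 and 18.9 CPM in KO RT. It had 39.2, 59.9, 22.3 and 32.5 CPM in control cold, against 21.2 and 19.9 CPM in control RT, with no overlap in the controls. Its log2 fold change of 0.90 ± 0.39 in control tissue did not pass.

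Of the 3 monocyte genes, Cx3cr1 and Ccr2 fell in both genotypes. Cx3cr1 (ENSMUSG00000052336.8, chromosome 9), the fractalkine receptor of patrolling monocytes and some tissue macrophages, had 0.612, 0, 1.13 and 0.564 CPM in KO cold libraries, against 6.08, 4.59 and 5.25 CPM in KO RT libraries. The control cold libraries had 0.576, 1.24, 3.10 and 0 CPM, against 12.4 and 8.44 CPM in control RT libraries. Each cold library was below each RT library of its genotype. In counts this was 4 in KO cold, against 30 in KO RT, a depth-scaled ratio of 0.106 (exact 95% interval 0.0270 to 0.300, counting error only), and 8 in control cold, against 41 in control RT, a ratio of 0.117 (0.0474 to 0.253). The test called both (q = 0.00407 in KO and 0.00152 in control tissue). Cx3cr1 passed the filter of the test only through RT libraries, where it is high, and was not tested when the KO groups were fitted alone. Cx3cr1 overlaps 9 other gene models in the GENCODE annotation, and whether the counting used strand is not given in the sources used here, so that tags of a neighbour cannot be told apart from its own.

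Ccr2 (ENSMUSG00000049103.15, chromosome 9), the receptor that brings classical monocytes into tissue, had 9.79, 8.35, 8.44 and 7.34 CPM in KO cold libraries, against 18.7, 18.9 and 16.8 CPM in KO RT libraries. In controls, cold libraries had 13.8, 14.8, 13 and 7.06 CPM, against 19.8 and 45.2 CPM in control RT libraries. The groups did not overlap in either genotype, and control RT 2 was far above the other control. The log2 fold change was -1.09 ± 0.30 in KO (q = 0.0170) and -1.37 ± 0.30 in control tissue (q = 0.00349). Without control RT 2 the control value was -0.67 (q = 0.143), and in KO tissue the call was lost without KO RT 1 (-1.07, q = 0.0601) or KO RT 2 (-1.06, q = 0.0528). Cd14, the co-receptor for bacterial lipopolysaccharide, had 2.45, 2.09, 2.25 and 3.39 CPM in KO cold, against 5.57, 5.74 and 5.77 CPM in KO RT. In controls it had 0.576, 7.41, 4.96 and 4.24 CPM in the cold, against 2.30 and 4.82 CPM at RT. The KO groups did not overlap and the control groups did. The Cd14 log2 fold changes of -1.14 ± 0.51 in KO and 0.30 ± 0.59 in control tissue did not pass, nor did their difference of -1.44 ± 0.78 (q = 0.661), which was -0.95 without control RT 1.

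**Figure D2:**
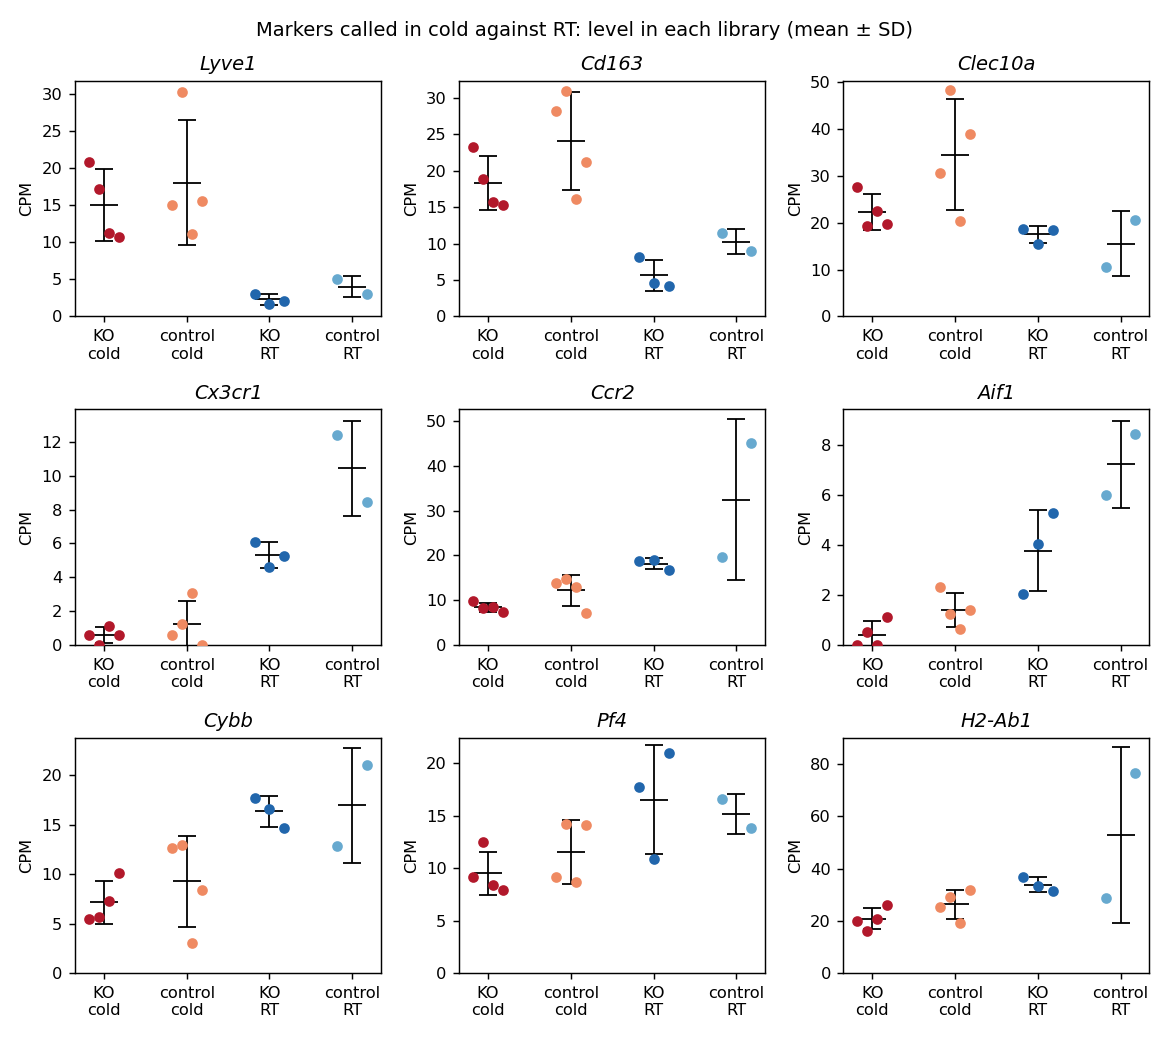
CPM of the 9 markers called in cold against RT in at least one genotype, one point per library (KO cold n = 4, control cold n = 4, KO RT n = 3, control RT n = 2), with mean and SD as bars and linear axes from 0. Lyve1 and Cd163 are higher in every cold library than in every RT library, and Cx3cr1, Ccr2 and Aif1 are lower in every cold library than in every RT library of the same genotype.

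Of the core macrophage genes, Aif1 and Cybb were called. Aif1 (ENSMUSG00000024397.15, chromosome 17) encodes the actin-bundling protein IBA1 and had 0, 0.522, 0 and 1.13 CPM in KO cold libraries, against 2.03, 4.02 and 5.25 CPM in KO RT libraries. Levels in control cold libraries were 2.30, 1.24, 0.619 and 1.41 CPM, against 5.98 and 8.44 CPM in control RT libraries. The groups did not overlap in either genotype. The 3 counts in KO cold, against 21 in KO RT, gave a ratio of 0.113 (exact 95% interval 0.0216 to 0.379), and the 9 counts in control cold, against 27 in control RT, gave 0.200 (0.0828 to 0.438). The test called Aif1 in KO (q = 0.00812) and in control tissue (-2.28 ± 0.58, q = 0.00872), where the call was lost without control RT 2 (-2.02). Only the 2 control RT libraries, with 13 and 14 counts, carried Aif1 past the filter of the test. It was thus tested through the group where it is highest, and it was not tested when the KO groups were fitted alone.

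Cybb (ENSMUSG00000015340.11, chromosome X), the catalytic subunit of the phagocyte NADPH oxidase, had 5.51, 5.74, 7.31 and 10.2 CPM in KO cold libraries, against 17.7, 16.6 and 14.7 CPM in KO RT libraries. Control cold libraries had 12.7, 13, 3.10 and 8.47 CPM, against 12.9 and 21.1 CPM in control RT libraries. The KO groups stood apart and the control groups met. Cybb was called in KO tissue at -1.18 ± 0.35 (q = 0.0251), but the call did not hold without any one of KO cold 1, KO cold 2, KO cold 3, KO RT 1 or KO RT 2 (q = 0.0681, 0.0721, 0.0549, 0.0901 and 0.0656, at log2 fold changes of -1.19 to -1.07). In control tissue its log2 fold change was -0.83 ± 0.38.

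The lysozyme gene Lyz2, whose product degrades bacterial walls, had a log2 fold change, cold over RT, of -0.56 ± 0.30 in KO and -0.04 ± 0.32 in control tissue. Laptm5, a lysosomal membrane protein of leukocytes, had -0.28 ± 0.29 and -0.70 ± 0.29. Neither passed. The remaining tested genes of the core group were not called in either genotype. These were Adgre1 (the F4/80 antigen), Csf1r (the receptor for macrophage growth factor), Ctss (a protease of antigen processing), Itgam (integrin CD11b), Mpeg1 (a pore-forming protein) and Cd84 (a signalling receptor of leukocytes), with log2 fold changes between -1.30 and 0.25 in KO and between -0.93 and 0.64 in control tissue. Their group means were 1.99 to 27.4 CPM in KO cold, 3.74 to 33.7 CPM in control cold, 3.72 to 30.8 CPM in KO RT and 5.31 to 45.2 CPM in control RT.

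Genes of complement C1q, Fc receptors and lipid-associated macrophages gave 0 calls by edgeR in cold against RT. At an unadjusted p under 0.05 there were 0 such genes in KO and 2 in control tissue, Fcer1g (-1.11 ± 0.47) and Gpnmb (1.59 ± 0.68). C1qa, the C1q chain with the highest mean CPM, had 21.4, 18.8, 11.3 and 17.5 CPM in KO cold, against 21.3, 14.9 and 22.6 CPM in KO RT. It had 28.2, 39.5, 11.8 and 33.2 CPM in control cold, against 18.4 and 31.9 CPM in control RT, and cold and RT libraries overlapped in both genotypes. C1qb and C1qc, the other chains of C1q, had log2 fold changes of 0.04 and 0.26 in KO and 0.30 and 0.02 in control tissue. The low-affinity immunoglobulin receptor gene Fcgr3 had 14.1, 7.30, 9.56 and 6.77 CPM in KO cold, against 7.09, 4.59 and 8.40 CPM in KO RT, with 10.4, 20.4, 8.67 and 16.9 CPM in control cold, against 5.98 and 18.1 CPM in control RT. These groups overlapped too, and the adaptor gene Tyrobp had -0.50 in KO and -0.34 in control tissue. Gpnmb, a glycoprotein of lipid-laden macrophages, had 3.06, 9.39, 7.31 and 3.95 CPM in KO cold, against 4.05, 3.44 and 5.77 CPM in KO RT. It had 12.1, 13, 1.24 and 12.7 CPM in control cold, against 1.84 and 4.82 CPM in control RT, where control cold 3 stood below both RT libraries and the other cold libraries above them. Lgals3, galectin-3, had log2 fold changes of 0.04 in KO and 0.24 in control tissue.

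The MHC class II genes had negative log2 fold changes in the cold in both genotypes, and 1 of the 4 was called. H2-Ab1 (ENSMUSG00000073421.7, chromosome 17), the class II A beta chain, had 20.2, 16.2, 20.8 and 26.0 CPM in KO cold libraries, against 37.0, 33.3 and 31.5 CPM in KO RT libraries. The control cold libraries had 25.3, 29.0, 19.2 and 31.8 CPM, against 29.0 and 76.5 CPM in control RT libraries. The KO groups did not overlap, while control RT 1 lay among the cold controls. H2-Ab1 was called in control tissue at -0.98 ± 0.29 (q = 0.0226) and had -0.71 ± 0.28 in KO tissue (q = 0.0866). The KO value passed without control RT 1 (q = 0.0179), without control RT 2 (q = 0.0202) and with the KO groups fitted alone (-0.72, q = 0.0109). Without control RT 2 the control value was -0.13 (q = 0.786), and without control cold 3 it was -0.85 (q = 0.0501).

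H2-Aa, the class II A alpha chain, had 36.1, 40.2, 51.2 and 50.2 CPM in KO cold, against 56.7, 66.6 and 68.8 CPM in KO RT. It had 49.5, 84.0, 32.2 and 53.6 CPM in control cold, against 51.5 and 107 CPM in control RT. The KO groups stood apart and the control groups overlapped, at log2 fold changes of -0.52 ± 0.27 in KO and -0.52 ± 0.30 in control tissue. H2-Eb1, the E beta chain, and Cd74, the invariant chain that escorts class II molecules, had -0.26 and -0.28 in KO and -0.20 and -0.55 in control tissue.

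**Figure D3:**
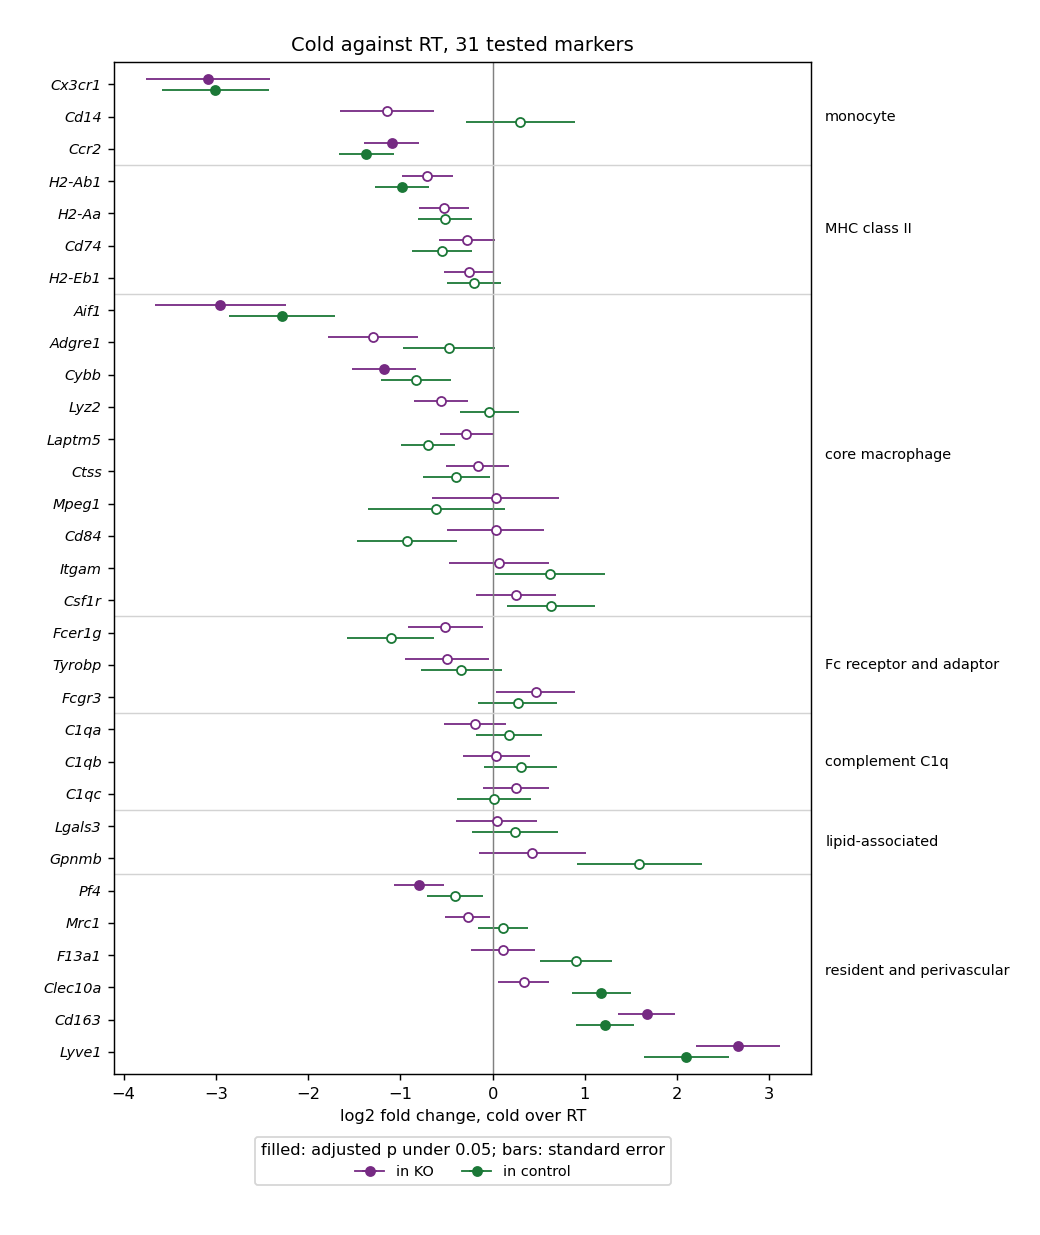
Log2 fold change of cold over RT with its SE for the 31 tested markers, grouped by role, in KO (upper point of each pair) and control tissue (lower point); filled points were called (q under 0.05). Cx3cr1, Ccr2 and Aif1 lie at or below -1.09 in both genotypes, and Cd163 and Lyve1 at or above 1.22.

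No marker was called in KO against control tissue in the cold (0 of 31 by edgeR, 5 at an unadjusted p under 0.05, and 0 by DESeq2), where 5.93% of all tested genes were called (2.44% higher and 3.49% lower). Of the 31 log2 fold changes, 28 were negative, with a median of -0.51 against -0.01 over all tested genes, and every one of the 6 tested resident, 3 C1q, 3 monocyte and 4 class II genes was negative. Without control cold 2 the median was -0.29. All 10 fibroblast genes were negative in the same contrast, with a median of -0.60 and 0 called, and their part in the marker values was not tested. In 0 of the 31 did the KO and control libraries stand apart, against 6.28% of all genes for higher and 6.53% for lower. Since the markers rise and fall together between the control cold libraries, the 28 signs are not independent.

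The smallest p belonged to Lyz2, which had 24.5, 30.3, 41.1 and 26.5 CPM in KO cold, against 50.7, 87.1, 28.5 and 43.8 CPM in control cold. Of the controls only control cold 3 was inside the KO range. The log2 fold change was -0.78 ± 0.28 (q = 0.111), -0.98 without control cold 3 (q = 0.0349) and -0.42 without control cold 2 (q = 0.376). Clec10a was -0.63 ± 0.24 (q = 0.147), -0.82 without control cold 3 (q = 0.0457) and -0.42 without control cold 2 (q = 0.383), and C1qa was -0.71 ± 0.31 (q = 0.201, and 0.0355 without control cold 3). These were the 3 markers called when that library was left out, and 0 were called with any other single library left out. F13a1 was -0.80 ± 0.31 (q = 0.147), and -0.51 without control cold 2 (q = 0.406). H2-Eb1 had 34.3, 35.5, 51.8 and 36.1 CPM in KO cold, against 49.0, 78.5, 45.8 and 64.9 CPM in control cold, where KO cold 3 lay above the lowest of the controls, and its log2 fold change was -0.59 ± 0.25 (q = 0.196). The 3 positive values were those of Fcer1g (0.44 ± 0.43), Mpeg1 (0.09 ± 0.66) and Cd84 (0.07 ± 0.50).

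At RT no marker was called in KO against control tissue either (0 of 31 by edgeR, 3 at an unadjusted p under 0.05, and 0 by DESeq2), where 0% of all tested genes were called. The median log2 fold change was -0.31, with 26 of 31 negative, and it was 0.08 without control RT 2. In KO against control libraries 1 marker stood apart on the higher side, Cd14, and 4 on the lower side, Ccr2, Cd163, Cx3cr1 and Aif1, against 8.68% and 7.96% of all genes. Cx3cr1 had 30 counts in KO RT, against 41 in control RT, a ratio of 0.499 (exact 95% interval 0.301 to 0.819), and Aif1 had 21 counts, against 27, a ratio of 0.530 (0.285 to 0.974). These intervals hold counting error only and not the spread between samples.

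Laptm5 had 23.3, 17.8 and 21.0 CPM in KO RT, against 22.5 and 53.6 CPM in control RT, at a log2 fold change of -0.85 ± 0.31 (q = 1). It was -0.11 without control RT 2 and -1.37 without control RT 1. The other small p belonged to Ccr2 (-0.81 ± 0.30), Cd163 (-0.86 ± 0.38) and H2-Ab1 (-0.61 ± 0.30), each with q = 1. Without control RT 2, Ccr2 had -0.12 and H2-Ab1 0.23, while Cd163 had -1.0. Without control RT 1, Ccr2 had -1.32, H2-Ab1 -1.18 and Cd163 -0.67. The difference of the cold response, KO minus control, gave 0 called markers by edgeR, 0 at an unadjusted p under 0.05 and 0 by DESeq2, where 0.0181% of all tested genes were called. Its median was -0.16, but 0.13 without control cold 2 and -0.61 without control RT 2. F13a1 had -0.79 ± 0.52 (q = 0.757), or -0.29 without KO RT 1, and Gpnmb had -1.16 ± 0.91 (q = 0.808), or -0.56 without control RT 1.

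**Figure D4:**
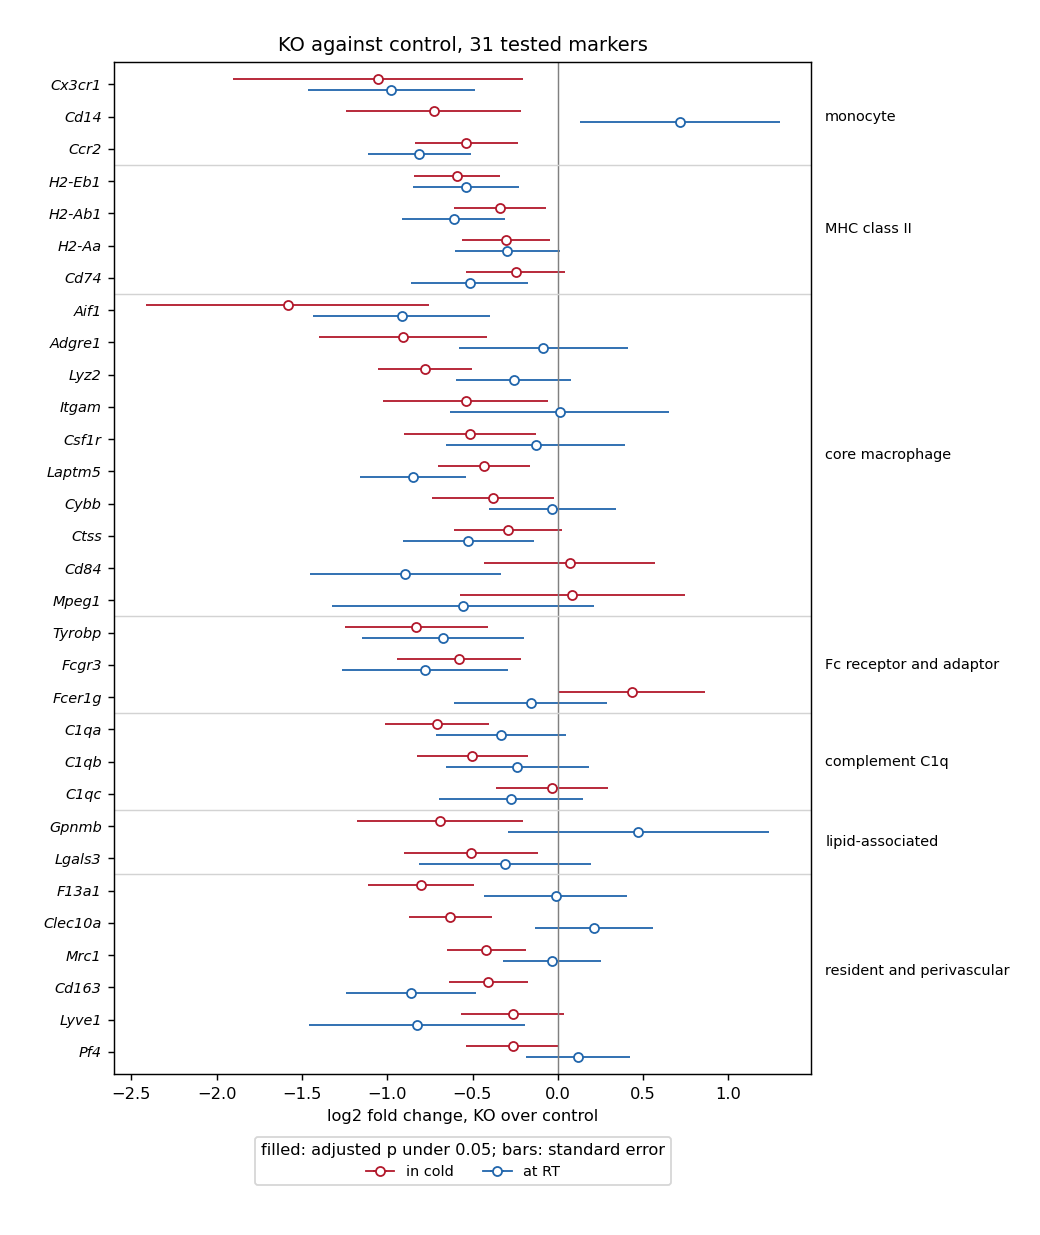
Log2 fold change of KO over control with its SE for the 31 tested markers, grouped by role, in the cold (upper point of each pair) and at RT (lower point); all points are open because none had q under 0.05. In the cold 28 of 31 points lie below 0, with a median of -0.51.

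Markers too thin for the test were pooled by group. Cd68, a lysosomal membrane protein that is a standard macrophage marker, had 5, 11, 12 and 16 counts in KO cold, control cold, KO RT and control RT. Its ratio of cold to RT was 0.330 in KO (exact 95% interval 0.0911 to 1.01) and 0.413 in control tissue (0.173 to 0.947). Ms4a7, a membrane protein of mature macrophages, had 17, 18, 15 and 14 counts, and Folr2, the folate receptor of resident macrophages, had 6, 9, 9 and 1. Fcgr1, the high-affinity immunoglobulin receptor, had 3, 2, 4 and 3 counts, and Trem2 had 0, 1, 0 and 2. The intervals of KO over control held 1 for all 5 genes in the cold and at RT, and cover counting error only. The table also held near-copies, Lyz1 with 32 counts beside Lyz2 and Fcgr4 with 26 beside Fcgr3, whose tags may be shared between the copies.

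Other genes of the same cells, listed with earlier results in view, moved in both directions in the cold. Of 13 tested further tissue macrophage genes, 3 rose and 2 fell in KO and 3 rose and 1 fell in control tissue. Mertk, a receptor for the uptake of dead cells, rose by 0.74 in KO and 0.83 in control tissue. Hmox1, which degrades haem, rose by 2.22 (q = 0.0117) and 3.48 (q = 0.000711) and was lower in KO than in control tissue in the cold (34.1 ± 15.9 against 108 ± 66.3 CPM, -1.65 ± 0.39, q = 0.0193). The lectin gene Mgl2 fell in KO (-1.29, q = 0.00312), as did the endocytic adaptor Dab2 (-0.77, q = 0.0283), and the iron exporter Slc40a1 fell in control tissue (-1.87, q = 0.00528). Hmox1, Dab2 and Slc40a1 are also expressed by cells other than macrophages.

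Of 8 tested growth factor, chemokine and cytokine genes, 2 rose in KO and 3 in control tissue. The chemokine genes Ccl6 (1.77 and 1.74) and Ccl9 (2.04 and 2.68) rose in KO and in control tissue, and the interleukin-4 receptor Il4ra rose in control tissue (1.13, q = 0.0101). Of 10 lysosome and lipid genes, Plin2, which coats lipid droplets, and the protease Ctsl rose in both genotypes, and the lysosomal lipase Lipa fell in control tissue. Of 3 further class II genes, Ciita, the class II transactivator, fell in control tissue (-2.98, q = 0.00743). Ciita had 0 to 1.86 CPM in cold libraries. It passed the filter of the test only through KO RT 2 (5.74 CPM) and control RT 2 (12.7 CPM), where it is high, while control RT 1 had 3.68 CPM. Of 6 pan-leukocyte genes, Ptprc, Cd52, Coro1a and Lcp1 fell in control tissue and 0 in KO tissue, with control RT 2 at 47.0 CPM of Ptprc and control RT 1 at 11 CPM. Coro1a passed the filter only through KO RT 1 (5.57 CPM) and control RT 2 (13.3 CPM), where it is high. Of 3 neutrophil and monocyte genes, S100a9 fell in both genotypes (-2.30 and -1.81) and S100a8 in control tissue. S100a8 and S100a9 passed the filter only through RT libraries, where they are high. Control RT 1 had 13.8 CPM of S100a8 and 11 CPM of S100a9, while control RT 2 had 2.41 and 3.01 CPM. The latter lay inside the ranges of the control cold libraries, 0.576 to 4.24 CPM for S100a8 and 0.576 to 3.10 CPM for S100a9. Of 8 mast cell and eosinophil genes only the receptor gene Kit was abundant enough for the test, and it fell in both (-2.19 and -2.90). Kit had 2.12 to 3.67 CPM in cold libraries, against 10.8 to 26.7 CPM in RT libraries, and passed the filter only through the RT libraries. This 1 gene gives no reading of mast cells as a group.

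Among cells of other kinds, the 19 T, B and NK cell genes were all too low to test, and the 1 tested dendritic cell gene, Zbtb46, was not called. Zbtb46 had 33.4 to 77.5 CPM, where the other genes of its list had 0 to 4.22 CPM. How far its level reads dendritic cells was not tested. Skeletal muscle genes were called lower in the cold, 2 of 8 in KO and 6 of 8 in control tissue. Their summed levels were 47.8 to 257 CPM in cold libraries, against 107 to 1806 CPM in RT libraries. Control RT 2 (107 CPM) and KO RT 3 (155 CPM) lay inside the cold range, while control RT 1 had 1806 CPM. Fibroblast genes fell in KO tissue in the cold (5 of 10) and not in control tissue (0 of 10). Of 10 brown adipocyte genes, 3 rose in KO and 3 rose and 1 fell in control tissue. Of 10 endothelial genes, 2 rose in KO and 2 rose and 2 fell in control tissue, 1 of 7 smooth muscle genes fell in each genotype, and 0 of 5 erythrocyte genes were called. In KO against control tissue in the cold, 1 brown adipocyte gene was higher and 1 smooth muscle gene lower, and 0 were called in the leukocyte, fibroblast, endothelial, skeletal muscle and erythrocyte lists. The difference of the cold response gave 0 calls in each of the lists. How far these cells account for the marker levels was not tested.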

How the data were processed

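Total RNA of brown adipose tissue was made into QuantSeq 3′ mRNA libraries, per the labels' protocols. The authors deposited raw counts per Ensembl gene, with no scaling. Build GRCm39, the aligner STAR 2.7.10b and the counter HTSeq 0.12.3 are listed in the submitters' processing notes, as are Trim Galore 0.6.7 and UMI-tools 1.1.2, with no settings. Whether tags were collapsed by molecular identifier is not given in the sources used here. The exact intervals cover counting error only and take each count as independent, so they would be too narrow if copied tags were kept.

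Of 55632 lines, 275 that repeated an identifier with the same counts were dropped. The counts of all 13 libraries were fitted together in R 4.3.3 with edgeR 4.0.16 (filterByExpr with a minimum count of 10, TMM scaling, quasi-likelihood test, one coefficient per group), with Benjamini-Hochberg adjustment over 11073 genes. The script was tested on simulated data. Ratios of pooled counts have exact 95% intervals. Promoters are RefSeq's on GRCm38.p6, matched by symbol for 27 markers; Lyve1, Clec10a and H2-Ab1 have no entry. Overlapping gene models were read from GENCODE on GRCm38.

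The markers, their roles and the other gene lists were chosen with earlier results of these data known, so no list was tested and p-values were not adjusted over a list. Library values are given for markers called in a contrast, among the 4 smallest p of a contrast, or most abundant in their role. Genes of the other lists may be named where called, among the 2 highest by mean CPM or among the 2 smallest p; those of other cell types are given mostly as counts. The lymphatic endothelial list, and C1qa in KO against control tissue, were added after values were seen. All library names share one suffix, which is not said to be a batch, and no batch term was fitted. Replicates were distinct libraries, since each pair differed by more than counting noise (chi-square of 1.97 to 6.66 per degree of freedom). Alternatives were DESeq2 1.42.0, another scaling, another filter, a replicate block, each contrast's groups alone and each library left out. The values of 1 gene of the other lists are not reported here.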

Additional observations from a re-analysis of the deposited data

Results flagged for a closer look

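Among 70 groups of 4 libraries (35 markers in KO cold and in control cold), 5 held a library whose gap to its nearest neighbour passed Dixon's 95% critical value. Chance would flag about 1 in 20 groups of independent, normally spread values. The groups here share libraries, and Fcgr1 and Folr2 had few counts, so that rate need not hold. No conclusion is drawn from the number of flags. Csf1r had 29.0 CPM in control cold 2, above the other control cold libraries. Fcgr1 had 1.24 CPM in control cold 3, where all of the Fcgr1 counts of that group lay. Folr2 had 0 CPM in KO cold 2. Gpnmb had 1.24 CPM in control cold 3, below the other control cold libraries. H2-Eb1 had 51.8 CPM in KO cold 3, above the other KO cold libraries. The cause was not tested in any of the 5.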

How the results depend on the processing

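Each result was recomputed under 18 to 20 alternative settings, and of 26 values of single markers 15 kept their direction and their side of the threshold in each setting run for them. Leaving out one library at a time gave 0 to 3 called markers in KO against control tissue in the cold, 4 to 7 in cold against RT in KO and 3 to 9 in cold against RT in control tissue. The 3 came without control cold 3, the 4 without KO RT 1 (Lyve1, Cd163, Cx3cr1 and Aif1 were called) and the 3 in control tissue without control RT 2 (Clec10a, Lyve1 and Cx3cr1 were called). Counts of called markers under alternative settings are given without the share of all tested genes, so they are not read as results about the markers. The median log2 fold change ranged from -0.66 to 0.080 in KO against control tissue at RT, from -0.37 to 0.38 in cold against RT in control tissue and from -0.61 to 0.13 in the difference of the cold response, each time with one extreme without control RT 2. Leaving out control cold 2 and control RT 2 together, a setting chosen after seeing the data, gave a median of 0.083 at RT and 3 called markers in cold against RT in control tissue. H2-Ab1 in KO against control tissue at RT reversed to 0.23 without control RT 2 and to 0.24 without both libraries, and ranged from -1.18 to 0.23 as single libraries were left out. The cause was not tested. The call of Pf4 in KO tissue was lost in 13 settings, DESeq2 among them (q = 0.0965). Clec10a (q = 0.0597) and H2-Ab1 (q = 0.0705) in control tissue were lost when the groups of the contrast were fitted alone. Aif1 and Cx3cr1 were too low to be tested in KO tissue under that setting. The same setting added H2-Ab1 (q = 0.0109), H2-Aa (q = 0.0188), Cd14 (q = 0.0304) and Lyz2 (q = 0.0471) in KO tissue, where H2-Ab1 also passed without control cold 2 and control RT 2 together (q = 0.0208). In control tissue, leaving out control cold 3 added Gpnmb (q = 0.00899) and F13a1 (q = 0.0376), leaving out control cold 2 added H2-Aa (q = 0.0456), and leaving out control RT 1 added Laptm5 (q = 0.0106) and Fcer1g (q = 0.0486), which were also added without control cold 4 (q = 0.0463 and 0.0477). Over the alternatives q ran from 0.0215 to 0.215 for Pf4, 0.00433 to 0.0901 for Cybb and 0.00211 to 0.0601 for Ccr2 in KO tissue. In control tissue q ran from 0.000646 to 0.143 for Ccr2, 0.00731 to 0.0891 for Aif1, 0.0024 to 0.101 for Cd163, 0.00259 to 0.230 for Clec10a and 0.00104 to 0.786 for H2-Ab1. In KO against control tissue in the cold it ran from 0.0349 to 0.376 for Lyz2 and 0.0457 to 0.383 for Clec10a. Where a control RT library is left out, the other one is assumed to vary like the other groups. At fewer than 30 counts per group, as for Aif1 and the thin markers, depth limits the size that could be seen.

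The replicate numbers are shared between groups, but correlations of the deviations of same-numbered libraries ran from -0.16 to 0.33, so the numbers were not taken to pair samples. With the replicate block, 0 markers were called in KO against control tissue in the cold and at RT, 6 in cold against RT in KO (without Pf4, q = 0.101) and 7 in control tissue, with 0 in the difference of the cold response.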
